A study of Mus musculus with 8 samples.

Results

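The membrane-bound adenylyl cyclases are encoded by 9 genes, Adcy1 to Adcy9. This family was chosen with earlier results of these data known, and its members were found by gene symbol. All 9 were present, each in 1 entry, among the 47706 genes listed in a count table from mouse calvarial osteoblasts. These are primary bone-forming cells grown out of the newborn mouse skullcap. RNA was sequenced from 4 cultures treated with parathyroid hormone (PTH) and from 4 treated with vehicle, both for 24 hours. All 8 sample names carry the prefix "Con", which the labels do not explain, and the labels give no genotype, strain or sex. For its transgenic mice the paper names a C57BL/6 background. In both groups the cells had first been differentiated for 7 days, and the paper adds a period of serum starvation. The labels call this differentiation adipogenic, whereas the paper describes osteogenic medium for these cells. The labels do not say whether the cultures came from separate cell isolations, so the p-values measure the spread between these samples, which may be partly technical.

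Adenylyl cyclases convert ATP to cyclic AMP (cAMP) at the inner face of the plasma membrane. The PTH receptor couples to the stimulatory G protein subunit Gαs, which activates every membrane-bound isoform, and the cAMP formed activates protein kinase A and thereby transcription factors of the CREB family. The isoforms differ in their other inputs. Adcy1, Adcy3 and Adcy8 are grouped as stimulated by calcium and calmodulin, Adcy2, Adcy4 and Adcy7 as stimulated by G protein βγ subunits in the presence of Gαs, and Adcy5 and Adcy6 as inhibited by calcium, while Adcy9 responds poorly to forskolin.

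Total counts per sample ranged from 33605610 to 56090654, and 16736 genes had enough counts to be tested. Expression is given as CPM, counts relative to the TMM-normalized library size, with the mean ± SD of 4 samples. The effect of PTH was tested in edgeR by its quasi-likelihood method, and p-values were adjusted by Benjamini-Hochberg over all genes tested (threshold 0.05). Tnfsf11, which encodes RANKL and is a known PTH target, was at 1.42 ± 0.365 CPM in vehicle samples and rose by 6.48 on the log2 scale to 128 ± 20.01 CPM with PTH (edgeR adjusted p = 4.28e-11), in the direction the labels imply. Summed CPM of 8 osteoblast markers was between 73070 and 105688 in the 8 samples and that of 7 adipocyte markers between 417 and 492. Col1a1 and Col1a2 made up most of the first sum and Lpl most of the second, and within them the osteoblast transcription factor genes Sp7 (103 to 30.1 CPM, log2 fold change -1.78) and Runx2 (-0.33) and the adipocyte factor gene Pparg (-1.50) fell with PTH, while the other markers of these lists were not called or, for Lep, not tested. On the second principal component of all genes, PTH replicates 1 and 2 lay at opposite ends (43.6 and -42.0, against -9.69 and 12.5 for the other PTH samples). Among the PTH samples the order on this component was that of total counts, from 56090654 (replicate 1) to 33605610 (replicate 2). The part of sequencing depth in this was not tested. The RNA came from whole cultures, so fewer cells of a type and less RNA per cell cannot be told apart.

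PTH treatment changed expression of 5 of the 9 cyclase genes. Adcy1, Adcy4 and Adcy7 were upregulated, and Adcy6 and Adcy9 were downregulated. Adcy2, Adcy3, Adcy5 and Adcy8 did not pass the test. Among all genes tested, 45.8% differed between PTH and vehicle, 23.3% being higher and 22.5% lower, so the share of cyclase genes called was near this background. The 4 PTH samples did not overlap the 4 vehicle samples in the same 5 genes, against 43.0% of all genes tested. The log2 fold changes of the cyclase genes lay between -0.63 and 0.79 with a median of -0.16, and the median over all genes tested was -0.00081. None of the 5 changes reached a log2 fold change of 1 in either direction.

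**Figure D1:**
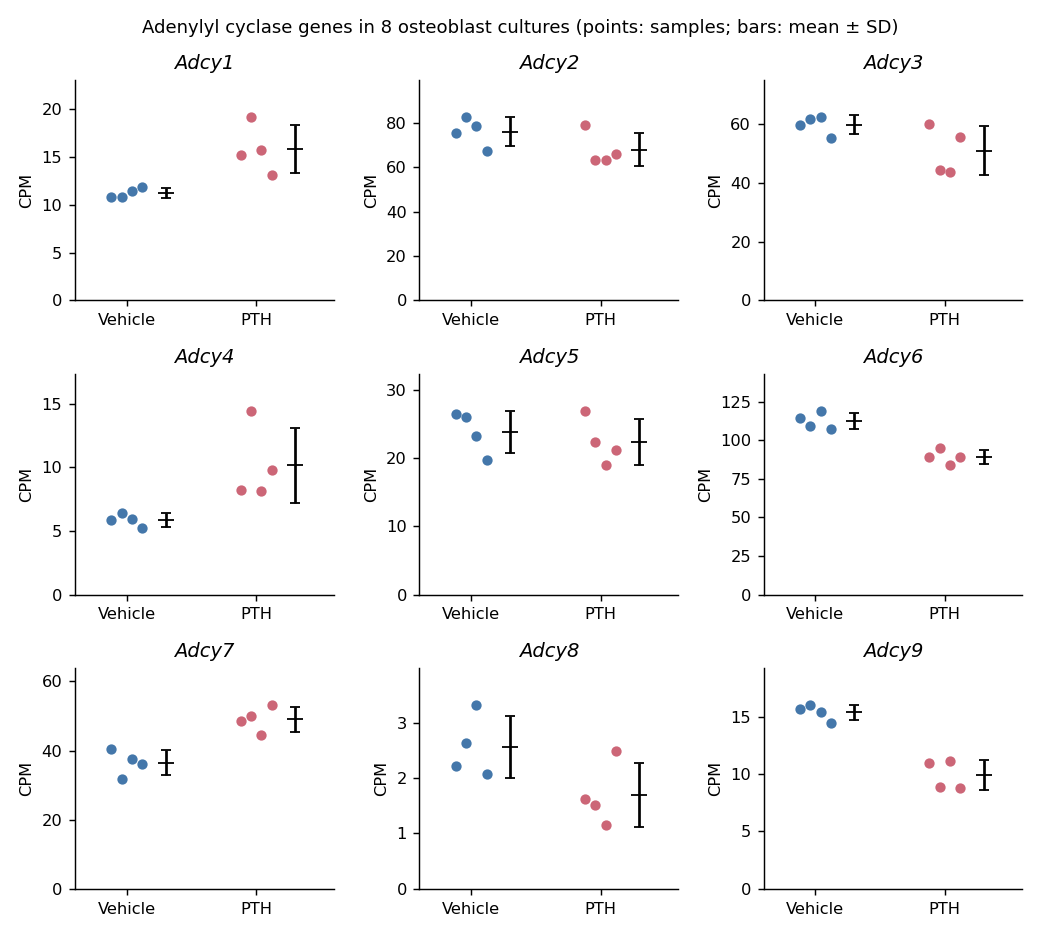
CPM of Adcy1 to Adcy9 in each of the 4 vehicle samples (blue) and 4 PTH samples (red), in 1 panel per gene with a linear axis from 0, samples in the order of their replicate numbers, and bars at the mean ± SD. The points of the groups are separate for Adcy1, Adcy4, Adcy6, Adcy7 and Adcy9 and overlap for the other 4 genes.

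Among the isoforms stimulated by βγ subunits, Adcy4 and Adcy7 were upregulated. Adcy4, an isoform known from blood vessels and other peripheral tissues, lies at chr14:55769057-55784095 on the minus strand (GRCm38) and had 5.85, 6.45, 5.95 and 5.20 CPM in vehicle replicates 1 to 4. With PTH it had 8.25, 14.4, 8.14 and 9.82 CPM. Every PTH sample was above every vehicle sample, and PTH replicate 2 was well above the other PTH samples. The mean rose from 5.86 ± 0.514 to 10.2 ± 2.95 CPM, by 73.4%, with a log2 fold change of 0.79 (standard error 0.178, edgeR adjusted p = 0.00314). Leaving out PTH replicate 2 gave the lowest of its leave-one-out values, 0.59. Of 5 endothelial markers, Kdr rose, Tek fell and Emcn was at 0. Their summed level was 6.15 to 6.97 CPM with vehicle and 5.66 to 6.97 CPM with PTH, so the ranges overlapped. Summed CPM of 5 smooth muscle and pericyte markers was 133 to 154 with vehicle and 345 to 490 with PTH, without overlap. Of these 5, 1 was called higher and 0 lower (20% higher, against 23.3% of all genes tested). The part of these markers in the Adcy4 result was not tested.

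Adcy7 (chr8:88272403-88329962, plus strand), an isoform prominent in blood and immune cells, had 40.3, 31.7, 37.7 and 36.2 CPM with vehicle. Its values with PTH were 48.7, 50.01, 44.4 and 53.2 CPM. The groups did not overlap, and the spread was similar in both. Means were 36.5 ± 3.62 CPM with vehicle and 49.1 ± 3.64 CPM with PTH, and the increase of 0.43 on the log2 scale (standard error 0.0852) had an adjusted p of 0.00143 by edgeR. Because Adcy7 is abundant in macrophages, their markers are given beside it. Summed CPM of 8 macrophage markers was 1018 to 1645 with vehicle and 1592 to 2052 with PTH, and Lyz2, Cd14 and Fcgr3 were upregulated while Cd68, Adgre1, Csf1r, Itgam and Mrc1 did not pass the test. All 8 had a positive log2 fold change, from 0.19 to 0.63. Their part in the Adcy7 result was not tested.

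Adcy2 (chr13:68620043-68999541, minus strand), an isoform best known from brain and muscle, did not pass the test. Its CPM values were 75.3, 82.7, 78.2 and 67.4 with vehicle and 78.9, 63.2, 63.2 and 65.8 with PTH. PTH replicate 1 stood with the vehicle samples, and the other PTH samples were below all of them. The means were 75.9 ± 6.44 and 67.8 ± 7.496 CPM, and the log2 fold change was -0.16 (95% interval -0.36 to 0.03, edgeR adjusted p = 0.152). Without PTH replicate 1 it was -0.25 (edgeR adjusted p = 0.0178).

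Of the isoforms stimulated by calcium, Adcy1 was upregulated. Adcy1 (chr11:7063489-7178506, plus strand), the classical calmodulin-activated cyclase of neurons, had 10.8, 10.8, 11.5 and 11.9 CPM with vehicle and 15.1, 19.2, 15.7 and 13.1 CPM with PTH. The vehicle values lay close together, and all PTH values were higher, with PTH replicate 2 again the highest. Its mean increased by 40.5%, from 11.2 ± 0.527 to 15.8 ± 2.53 CPM, which is 0.49 on the log2 scale (standard error 0.113, edgeR adjusted p = 0.00388). Of the neural and glial markers Tubb3, Map2, Snap25, Gfap and Sox10, Tubb3 alone passed the test, and it rose from 9.73 to 27.4 CPM. Snap25, Gfap and Sox10 each averaged below 1 CPM in both treatments, and the part of these markers in the Adcy1 result was not tested.

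Adcy3 (chr12:4133103-4213525, plus strand), the cyclase of olfactory neurons and of primary cilia, had 59.6, 61.8, 62.5 and 55.3 CPM with vehicle and 60.1, 44.4, 43.7 and 55.6 CPM with PTH. PTH replicates 2 and 3 were below all vehicle samples, and PTH replicates 1 and 4 were within their range. The log2 fold change was -0.23 (95% interval -0.45 to -0.01, edgeR adjusted p = 0.0876), and without PTH replicate 1 it was -0.32 (edgeR adjusted p = 0.0123). On the opposite strand Adcy3 shares 1380 exonic bases, 22.1% of its own, with Cenpo, a centromere protein gene that fell from 10.2 ± 1.01 to 6.81 ± 0.952 CPM. The strand setting of the counting is not given in the sources used here, so reads from the shared bases cannot be assigned to either gene with certainty.

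Adcy8 (chr15:64697084-64922296, minus strand), also a neuronal isoform, had the fewest counts, 99 to 159 per vehicle sample and 44 to 105 per PTH sample. In CPM these were 2.21, 2.64, 3.32 and 2.08 with vehicle and 1.62, 1.504, 1.15 and 2.50 with PTH. PTH replicates 1 to 3 were below all vehicle samples, and PTH replicate 4 was above vehicle replicates 1 and 4. The log2 fold change of -0.59 had the widest interval of the family (-1.18 to -0.01, edgeR adjusted p = 0.0911). Leaving out PTH replicate 4 gave -0.84 (edgeR adjusted p = 0.0235).

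Of the isoforms inhibited by calcium, Adcy6 was downregulated. Adcy6 (chr15:98589973-98610076, minus strand), a widely expressed isoform that Gαi and protein kinase A also inhibit, had 114, 109, 119 and 107 CPM with vehicle and 89.4, 95.1, 83.9 and 89.2 CPM with PTH. All PTH samples were below all vehicle samples. The mean fell from 112 ± 5.41 to 89.4 ± 4.54 CPM, by 20.4%, and the log2 fold change of -0.33 had the smallest standard error of the family (0.0631, edgeR adjusted p = 0.00109). An antisense gene that shares 8.92% of the exonic bases of Adcy6, Gm29331, had no counts in any sample.

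Adcy5 (chr16:35154877-35305738, plus strand), the close relative of Adcy6 that dominates in striatum and heart, had 26.5, 26.0, 23.3 and 19.7 CPM with vehicle and 27.0, 22.4, 19.0 and 21.3 CPM with PTH. Both groups covered nearly the same range. The means were 23.9 ± 3.10 and 22.4 ± 3.36 CPM, and the 95% interval of the log2 fold change of -0.09 ran from -0.35 to 0.17 (edgeR adjusted p = 0.578).

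Adcy9 (chr16:4287529-4420498, minus strand), the isoform least sensitive to forskolin, had 15.6, 16.0, 15.4 and 14.4 CPM with vehicle. Its values with PTH were 10.9, 8.91, 11.2 and 8.75 CPM. All PTH samples were below all vehicle samples, with PTH replicates 2 and 4 the lowest. The mean fell from 15.4 ± 0.687 to 9.94 ± 1.29 CPM, by 35.3%, with a log2 fold change of -0.63 (standard error 0.104) and the smallest adjusted p of the family, 4.13e-04 by edgeR. For each of the 5 genes called, an exact two-sided permutation test on log2(CPM + 0.1) gave p = 0.0286, the smallest that 4 against 4 samples allow. That value follows from the absence of overlap between the groups and adds nothing to it.

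**Figure D2:**
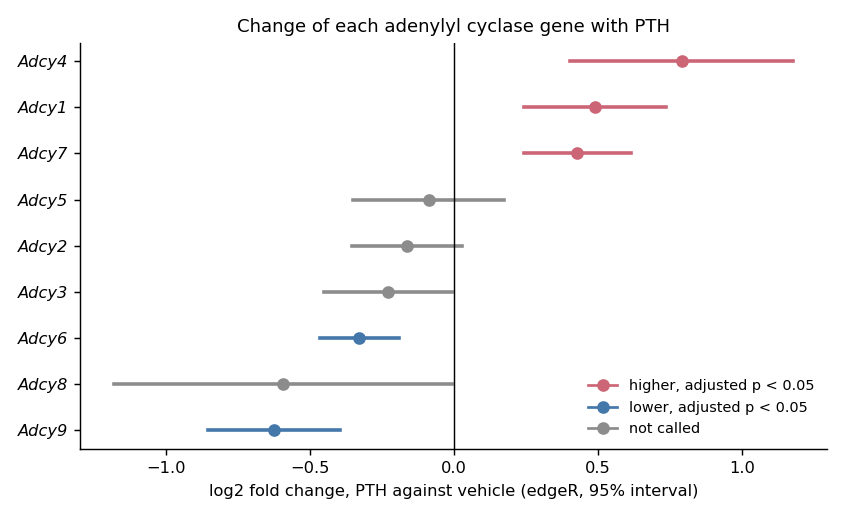
Log2 fold change of each cyclase gene with PTH against vehicle from edgeR (points) with its 95% interval (lines), ordered by size. Adcy4, Adcy1 and Adcy7 (red) were upregulated, Adcy6 and Adcy9 (blue) were downregulated, and the adjusted p of the 4 genes in grey missed the threshold, although the unadjusted intervals of Adcy3 and Adcy8 end just below 0.

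The soluble adenylyl cyclase, Adcy10, which is activated by bicarbonate rather than by G proteins, was barely detected. It had 2, 2, 6 and 4 counts in the vehicle samples and 1, 0, 0 and 0 in the PTH samples. It was not tested, and these counts are too few for a fold change.

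To ask whether cyclase genes responded differently from each other, log2(CPM + 0.1) of one gene was subtracted from that of another within each sample, and the differences were compared between treatments by exact two-sided permutation tests for all 36 pairs. The largest difference in response was between Adcy4 and Adcy9, at 1.38 on the log2 scale (SD of the within-sample difference 0.0654 with vehicle and 0.538 with PTH). Adcy4 and Adcy8 differed by 1.35, Adcy1 and Adcy9 by 1.11, and Adcy4 and Adcy6 by 1.08. Next came Adcy1 and Adcy8 at 1.07 and Adcy7 and Adcy9 at 1.06. The differences in 17 pairs did not overlap between treatments and reached the smallest possible p of 0.0286 by exact permutation, and after adjustment over the 36 pairs their p was 0.0605. At least 21 pairs at that smallest p would have been needed for any of them to pass the threshold. The share of such pairs among other genes was not computed. Of all single genes tested, 43.0% did not overlap between treatments, but that share is no background for differences between genes.

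Within each regulatory class of more than 1 gene the estimated changes were compared, and no difference passed the threshold after adjustment over the pairs. Among the βγ-stimulated genes, the change of Adcy2 was 0.91 lower than that of Adcy4 and 0.60 lower than that of Adcy7 on the log2 scale, without overlap between treatments in either difference, whereas the difference between Adcy4 and Adcy7 was 0.32 and overlapped (exact permutation p = 0.171, adjusted p = 0.220). Among the calcium-stimulated genes, Adcy1 exceeded Adcy3 by 0.72 without overlap and Adcy8 by 1.07 with overlap. The calcium-inhibited Adcy5 and Adcy6 differed in response by 0.24, which was not distinguishable from 0 (exact permutation p = 0.200, adjusted p = 0.240).

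Levels of different genes can be compared only per transcript length. With CPM divided by the mean length of the protein-coding transcripts in kilobases (GENCODE M21), the order in vehicle samples was Adcy6 (41.7 ± 2.01 CPM per kb), Adcy2 (18.0 ± 1.53), Adcy3 (12.8 ± 0.694), Adcy7 (6.34 ± 0.629), Adcy5 (3.41 ± 0.442), Adcy9 (3.30 ± 0.148), Adcy4 (2.44 ± 0.214), Adcy1 (0.917 ± 0.0430) and Adcy8 (0.369 ± 0.0805). Only the neighbours Adcy5 and Adcy9 had overlapping ranges. Adcy6 stood at the 86.7th percentile of 16152 tested genes with a known length, and Adcy8 at the 11.8th percentile. By the longest transcript these percentiles were 79.1 and 13.7, and by the union of all exons 83.3 and 14.3.

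In PTH samples the order per length was Adcy6 (33.2 ± 1.68 CPM per kb), Adcy2 (16.1 ± 1.78), Adcy3 (10.9 ± 1.75), Adcy7 (8.53 ± 0.632), Adcy4 (4.23 ± 1.23), Adcy5 (3.20 ± 0.479), Adcy9 (2.14 ± 0.277), Adcy1 (1.29 ± 0.206) and Adcy8 (0.244 ± 0.0824). By this length Adcy4 stood below Adcy9 with vehicle and above Adcy5, whose range it overlapped, with PTH. By the longest transcript and by the union of all exons Adcy4 stayed below Adcy5 on average with PTH. The first place of Adcy6 also depended on the length used. Its annotated coding transcripts average 2695.5 bases, and the longest has 6038. With the longest transcript of each gene, Adcy6 (18.6 ± 0.896 CPM per kb) and Adcy2 (18.0 ± 1.53) overlapped in vehicle samples, and Adcy2 (16.1 ± 1.78) was above Adcy6 (14.8 ± 0.751) in 3 of the 4 PTH samples. With the union of all exons, Adcy2 was above Adcy6 in each of the 4 vehicle samples (18.0 ± 1.53 and 16.6 ± 0.798 CPM per kb) and each of the 4 PTH samples (16.1 ± 1.78 and 13.2 ± 0.669).

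**Figure D3:**
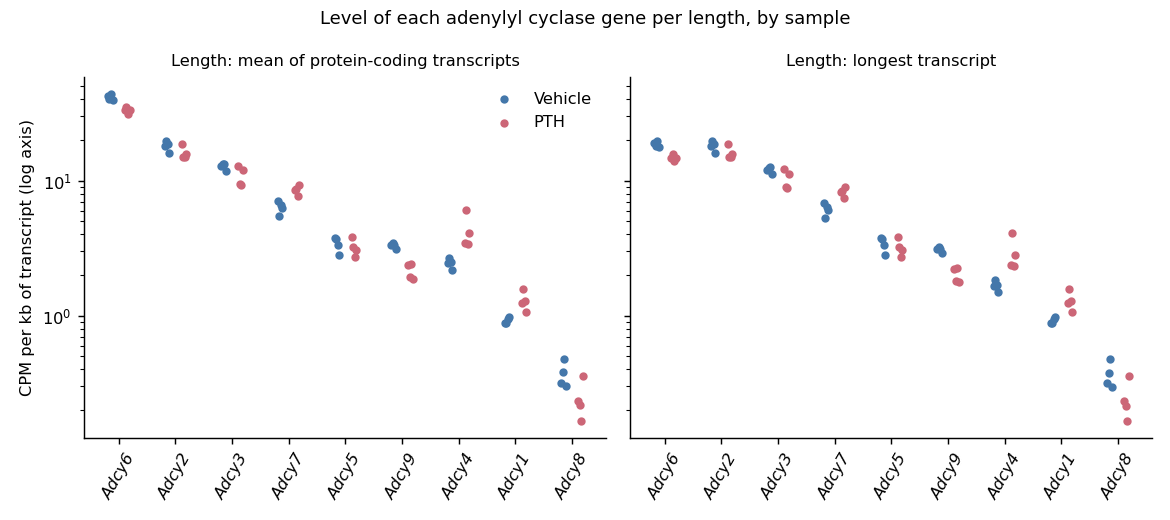
CPM per kilobase of transcript on a log axis for each cyclase gene in the 4 vehicle (blue) and 4 PTH (red) samples, with the mean length of protein-coding transcripts in the left panel and the longest transcript in the right panel, genes ordered by their vehicle level in the left panel. Adcy6 leads at 41.7 CPM per kb in vehicle on the left and lies beside Adcy2 at 18.6 on the right, and Adcy8 is lowest in both.

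Summed over the 9 genes, CPM was 343 ± 16.7 with vehicle and 317 ± 20.4 with PTH, with ranges of 319 to 357 and 290 to 340 that overlapped. Adcy6 made up 46.7 ± 1.23% of the summed level per length with vehicle and 41.6 ± 1.76% with PTH by the mean coding length, and 29.0 ± 1.01% and 25.1 ± 1.48% by the longest transcript. The share of Adcy7 was 7.11 ± 0.716% and 10.7 ± 0.611%, and that of Adcy4 was 2.73 ± 0.174% and 5.30 ± 1.46%, by the mean coding length. Adcy9 had 3.70 ± 0.113% with vehicle and 2.69 ± 0.446% with PTH. The shares of Adcy2 were nearly equal in the treatments, at 20.2 ± 1.15% and 20.2 ± 1.61%.

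The profiles most like each cyclase gene over the 8 samples were sought among 14056 genes that averaged 1 CPM or more, by the root mean square difference of centred log2 CPM. The closest to Adcy4 were Gramd1a (0.0703) and Zkscan3 (0.106), to Adcy7 Klhl11 (0.0508) and Smad7 (0.0525), and to Adcy1 Eif3a (0.0663) and Uhmk1 (0.0722). The profiles of Grik5 (0.0383) and Setd5 (0.0392) were closest to Adcy6, and those of 5730455P16Rik (0.0429) and Zfp97 (0.0606) to Adcy9. The nearest to the 4 genes that did not pass the test were Dstyk (0.0375) and Sobp (0.0424) for Adcy2, Erap1 (0.0403) and Man1a2 (0.0408) for Adcy3, Btbd9 (0.0751) and Kcnq5 (0.0774) for Adcy5, and A630052C17Rik (0.134) and Tpx2 (0.178) for Adcy8. All of these points share their libraries.

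Because PTH acts on transcription through cAMP, the promoters of the cyclase genes were searched for the cAMP response element. The RefSeq promoter table (GRCm38.p6) held 10 promoters for 7 of the genes, each with 250 bases before and 50 after the transcript start, and none for Adcy6 and Adcy8. The full element TGACGTCA was in none of the 10, and in 1.79% of all 32851 promoters of the same length. Its core TGACG, which is contained in the full element, was searched on both strands (CGTCA on the other strand) and was in 2 of the 10, against 20.8% of all promoters. These were the promoter of Adcy9 (downregulated), with the match starting 24 bases before the transcript start, and the first of 3 promoters of Adcy7 (upregulated), with a match on the other strand starting 28 bases before it. Their 250 upstream bases are shown 5′ to 3′ on the strand of the gene, with this core in capitals, for Adcy9 at chr16:4420499-4420748 (minus strand) and for Adcy7 at chr8:88282742-88282991 (plus strand).
Adcy9: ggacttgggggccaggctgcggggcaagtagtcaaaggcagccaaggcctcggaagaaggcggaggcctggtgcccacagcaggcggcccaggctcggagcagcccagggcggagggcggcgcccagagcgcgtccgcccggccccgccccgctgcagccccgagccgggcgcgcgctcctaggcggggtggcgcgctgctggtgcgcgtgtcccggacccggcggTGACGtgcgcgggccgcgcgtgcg
Adcy7: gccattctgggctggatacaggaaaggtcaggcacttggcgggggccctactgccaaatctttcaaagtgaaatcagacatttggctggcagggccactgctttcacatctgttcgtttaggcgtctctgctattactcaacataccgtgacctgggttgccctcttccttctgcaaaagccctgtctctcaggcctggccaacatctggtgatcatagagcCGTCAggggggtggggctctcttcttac
The promoters also differed in base composition, with a GC content of 78.3% for Adcy9 and 54.7% for this promoter of Adcy7, against a median of 52.7% over all promoters. A match describes the letters only, and binding was not measured.

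The cyclases are one step of a pathway, and the genes before and after them were described from lists chosen for their roles. These lists, too, were chosen with earlier results of these data known. Of 38 tested genes for G proteins and other cyclase regulators, 14 were higher (36.8%) and 9 lower (23.7%) with PTH, with a median log2 fold change of 0.04, against 23.3% and 22.5% of all genes tested. Gnas, which encodes the Gαs that activates the cyclases, averaged 1646 CPM in vehicle samples and 1715 CPM in PTH samples and was not called (log2 fold change 0.06, edgeR adjusted p = 0.567). Rgs2, a regulator of G protein signaling that also inhibits cyclases, rose by 3.76 on the log2 scale (20.7 CPM with vehicle, 280 CPM with PTH). The other changes of at least 1 on the log2 scale in this list were Akap5, a kinase anchor protein that binds cyclases (1.82), Camk4, a calmodulin-dependent kinase (1.04), and Gnaz, an inhibitory Gα subunit (-1.88). Akap5 had only 8 to 24 counts per vehicle sample and 43 to 55 per PTH sample. Gnaz averaged 3.40 CPM with vehicle and 0.916 CPM with PTH. Of the other Gα subunits of the inhibitory family in the list, Gnai1 fell by 0.65 and Gnao1 rose by 0.83. Gnai2 (-0.07) and Gnai3 (-0.03), which averaged 528 and 154 CPM in vehicle samples, were not called.

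The 20 cAMP effector genes were protein kinase A subunits and inhibitors, exchange factors, Popeye family genes, CREB family members and CREB coactivators. Of these 20, 4 were higher (20%) and 7 lower (35%), with a median log2 fold change of -0.11. The share of higher genes was near the 23.3% of all genes tested, and 22.5% of all genes were lower. Crem rose most, from 8.12 to 235 CPM (4.86, edgeR adjusted p = 8.60e-11). The exchange factors Rapgef3 and Rapgef4, which are activated directly by cAMP, went in opposite directions (0.81 and -0.97). Of 17 tested genes for cAMP removal, mostly phosphodiesterases, 9 were higher and 0 lower by edgeR, with 0 lower at an unadjusted p under 0.05 and 0 by DESeq2, and the median was 0.55. These 9 were 52.9% of the list, against 23.3% of all genes tested. Log2 changes of at least 1 were those of Pde4d (4.28, 11.3 to 218 CPM), Pde4b (4.17), Pde10a (2.64), Pde3b (1.37) and Pde7b (1.01). The other genes called higher, Pde7a (0.75), Pde8a (0.63), Pde8b (0.55) and Pde3a (0.55), changed by less.

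Guanylyl cyclases, which make cyclic GMP, are the nearest relatives of the adenylyl cyclases. Of 8 tested genes in a list of guanylyl cyclases and natriuretic peptide receptors, 0 were higher by edgeR (0 at an unadjusted p under 0.05 and 0 by DESeq2) and 2 were lower (3 at an unadjusted p under 0.05 and 3 by DESeq2), with a median log2 fold change of -0.62. The share lower by edgeR, 25.0%, was near the 22.5% of all genes tested. The 2 genes lower by edgeR encode subunits of the soluble, nitric oxide-sensitive enzyme, named Gucy1a3 and Gucy1b3 in the table. Gucy1a3 fell from 6.97 ± 1.33 to 1.17 ± 0.406 CPM (-2.56, edgeR adjusted p = 5.29e-06) and Gucy1b3 from 3.57 ± 0.897 to 1.498 ± 0.273 CPM (-1.25, edgeR adjusted p = 9.47e-04).

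**Figure D4:**
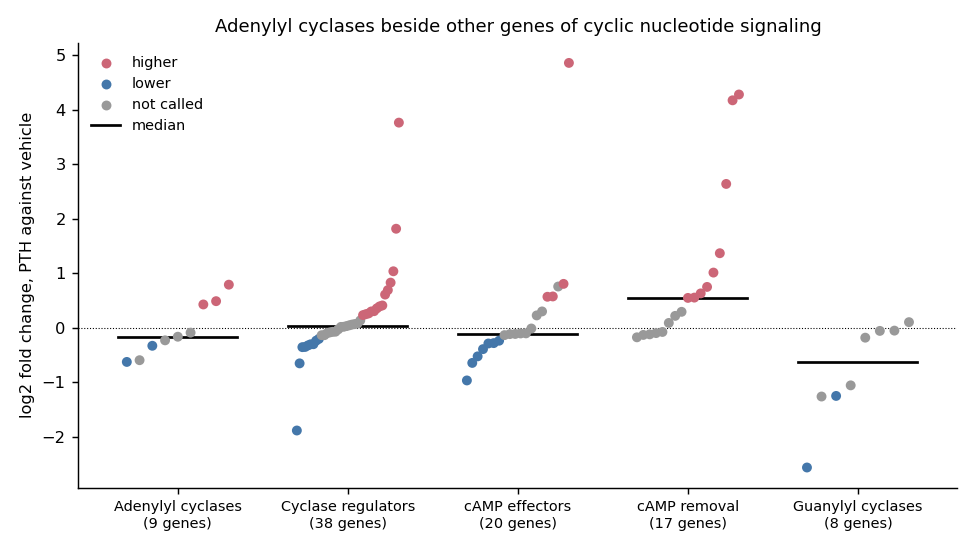
Log2 fold change with PTH against vehicle for each tested gene of 5 lists (9 adenylyl cyclases, 38 cyclase regulators, 20 cAMP effectors, 17 genes for cAMP removal, 8 guanylyl cyclases and natriuretic peptide receptors), colored by direction where the adjusted p was under 0.05, with the median of each list as a bar. The cyclase genes lie between -0.63 and 0.79, whereas Rgs2, Crem, Pde4d and Pde4b lie above 3.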

How the data were processed

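Poly(A)-enriched RNA of 4 PTH and 4 vehicle cultures was sequenced. The authors aligned the reads to mm10 (GRCm38) with HISAT2, assembled transcripts with StringTie and deposited whole-number counts per gene that were not normalized. Annotation version, strand setting and the read length used in counting are not given in the sources used here. In the table, 8 of the 9 cyclase genes carry a locus name of the assembly, and none shares its locus with another symbol. Columns were matched to samples by title. 1 listed marker gene is not reported here.

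Of 47706 genes, 26477 had counts and 16736 passed filterByExpr (minimum count 10, minimum total 15). Counts were TMM-normalized and tested with edgeR 4.0.16 (quasi-likelihood, two-sided, R 4.3.3) on all 8 samples, and DESeq2 1.42.0, which the authors used, was an alternative. Total counts of 33605610 to 56090654 leave Adcy8, with 44 to 159 counts, the least precise cyclase. Single genes and pairs of genes were compared by exact permutation tests over 70 assignments (SciPy 1.17.1). Positions and lengths are from GENCODE M21. Counts were also simulated for 16736 genes under the comparison of PTH with vehicle. From these counts edgeR recovered 89 of 100 genes changed by 1 on the log2 scale and 96 of 100 changed by 2. There were 8 false calls. The simulation gave every gene the same spread beyond counting noise and changed far fewer genes than were called in the data. These figures therefore describe the simulated counts only. The changes of the cyclase genes were at most 0.79 in size, and recovery of changes below 1 was not tested.

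The members and lists were chosen with earlier results of these data known. The rule for naming genes took the cyclases, Adcy10, Tnfsf11 and Pth1r, the genes of each list called and changed by 1 or more on the log2 scale or else the largest called change each way, and 2 genes of similar profile per cyclase. Gnas, Gnai1, Gnai2, Gnai3, Gnao1, Rapgef3, the overlapping genes and single marker genes were named in addition, after their values were seen. So were Pde3a, Pde7a, Pde8a and Pde8b. Alternatives were DESeq2, its size factors, no filter, a block for the replicate number, omission of each sample in turn, halved counts, counts summed by symbol, leaving out the 10 most abundant genes, a minimum fold change, another pseudocount and another transcript length. Offsets for transcript length and GC content, the union of exons and the pseudocount for pairs were added after seeing the data.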

Additional observations from a re-analysis of the deposited data

Results flagged for a closer look

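In 22 groups of 4 samples that were checked (the 9 cyclase genes and the genes used to check the labels, in each treatment), 2 held a sample whose gap to the nearest other was larger than Dixon's 95% critical value allows for their range. Chance gives about 1 in 20 such groups. Both samples were PTH replicate 1. Adcy2 stood at 78.9 CPM there and between 63.2 and 65.8 CPM in the other PTH samples. Tnfsf11 stood at 157 CPM there and between 115 and 120 CPM in the other PTH samples.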

How the results depend on the processing

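Adcy1, Adcy4, Adcy6, Adcy7 and Adcy9 kept their direction and an adjusted p under 0.05 in all 17 alternative fits, and no result reversed in sign. Leaving out 1 sample at a time left 3 to 3 cyclase genes higher and 2 to 4 lower. The 4 arose without PTH replicate 1, when Adcy2 and Adcy3 passed the threshold. With a minimum log2 fold change of 1, 0 were higher and 0 lower by edgeR. Adcy3 also passed with an offset for GC content (-0.33, adjusted p = 0.0298). The replicate numbers did not pair the samples, with correlations of -0.041 to 0.027 between same-numbered samples after removing the group means. With the number as a replicate block, 3 cyclase genes were higher and 2 lower. Over all genes, offsets turned the split of 3907 higher and 3762 lower into 3097 and 4418 (transcript length) or 3250 and 4623 (GC content). The median log2 fold change then lay at -0.08 to -0.09, and the 3232 genes with transcripts of up to 1149 bases had a median of 0.21 in the fit without offset. In the surrounding lists, the GC offset left 9 regulators higher in place of 14 and 1 removal gene lower in place of 0. Adding 1 in place of 0.1 before taking logs left 16 pairs at the smallest exact permutation p, with an adjusted p of 0.0643. The order of the changes by size also varied. With the GC offset Adcy9 (-0.73) and Adcy8 (-0.67) exceeded Adcy4 (0.65) in size, and without PTH replicate 4 Adcy8 (-0.84) exceeded Adcy4 (0.80). Adcy8 had 44 to 159 counts per sample and Adcy10 0 to 6, and Adcy10 was not tested.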

Other observations

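Expression of the PTH receptor gene Pth1r, which lies upstream of the cyclases, fell from 136 ± 21.1 to 83.6 ± 11.6 CPM (log2 fold change -0.70, edgeR adjusted p = 4.43e-04). The spread of the cyclase genes between PTH samples was widest for Adcy8 and Adcy4, with coefficients of variation of 33.8% and 29.1%, and narrowest for Adcy6 (5.07%). In vehicle samples the coefficients of variation were 21.8% for Adcy8, 8.77% for Adcy4 and 4.82% for Adcy6.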
